A study of Mus musculus with 6 samples.

Results

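The 38 genes described here are a panel of cell cycle and DNA replication genes in mouse colon. They were chosen by name from textbook roles in proliferation, and each name matched exactly 1 of the 54532 rows of the deposited expression table. Colon RNA came from mice 56 days old of the C57BL/6 strain, in 3 libraries labelled wild type (WT) and 3 libraries labelled IL10-/-, which is written Il10 knockout below. The cytokine interleukin 10 damps immune responses, and mice without it serve as a model of colitis. The labels name neither the Il10 allele nor the sex, housing or colon region of the mice, and do not say whether each library is a separate animal, so the tests measure the spread between these libraries. Values are FPKM, fragments scaled to gene length and to a library size whose source is not given, so levels can be compared between genes.

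The colon surface is replaced continuously by cells that divide in the lower crypt and differentiate as they move up, and dividing immune and stromal cells add to the same RNA. Cells that commit to division first raise the replication genes under E2F factors, which act with the DP proteins and are held in check by the retinoblastoma family. They then raise the mitotic genes under the MuvB complex with B-MYB and FOXM1, and most of this RNA is absent from resting cells. In whole tissue a change in such RNA can come from more or fewer dividing cells or from more or less RNA per cell, and these cannot be told apart.

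Most promoters of the panel hold at least 1 of the motifs through which these waves of transcription are known to run. A few are printed as examples from mitotic and replication genes. Of the 38 genes 31 had a promoter in the RefSeq table (build GRCm38.p6, 250 bases before to 50 bases after the annotated start), with 33 promoters in all because Mcm7 and Uhrf1 have more than 1 start; those without one in the table are Ccna2, Ccne2, Foxm1, Aurkb, Tpx2, Mcm4 and Kif20a. Searched on both strands were the CCAAT box bound by NF-Y, the cell cycle genes homology region (CHR, letters TTTGAA or TTCGAA) bound by MuvB, and the E2F site (letters TTTCCCGC, TTTGGCGC, TTTGGCGG, TTTCGCGC or TTTCCCGG). A CCAAT box was in 27 of the 33 member promoters (81.8%) and in 37.4% of all 32851 promoters of the table. A CHR was in 16 of the 33 (48.5%) and in 19.2% of all promoters. An E2F match was in 8 of the 33 (24.2%) and in 3.59% of all. The CHR lay mostly with the mitotic genes: 8 of 9 genes for mitotic kinases, cyclins and their ubiquitin ligase held it, 6 of 8 centromere and spindle genes, 2 of 5 MCM helicase genes and 0 of 7 genes for the replication clamp, nucleotide supply and chromatin. The E2F match lay mostly with the MCM genes, in 4 of 5, and was in 2 of the 7 clamp and nucleotide genes, 1 of the 9 mitotic and 1 of the 8 centromere genes. Of the 2 G1/S genes with a promoter, 0 held a CCAAT box, a CHR or an E2F match. A match is a run of letters and not a measured binding site.

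The promoters below are examples from mitotic genes (Mki67, Top2a, Ube2c) with a CHR match and from replication genes (Mcm7, Mcm6, Uhrf1, Hells) with an E2F match. Mcm7 also holds a CHR match, and of the Uhrf1 starts only the printed one has an E2F match. Each is the 200 bases just before an annotated start, 5′ to 3′ on the strand of the gene, with CCAAT, CHR and E2F matches on either strand in capitals. Top2a holds 4 CHR matches and Mki67 holds 2, while Mcm6 holds 3 E2F matches, of which 2 overlap each other. The pair CCAAT and its reverse overlap once in Ube2c.
Mki67 (chr7:135716380-135716579, minus strand): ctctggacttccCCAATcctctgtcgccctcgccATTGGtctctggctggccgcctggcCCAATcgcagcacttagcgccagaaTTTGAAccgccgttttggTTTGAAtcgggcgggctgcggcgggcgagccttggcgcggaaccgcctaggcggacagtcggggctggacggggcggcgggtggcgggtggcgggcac
Top2a (chr11:99024190-99024389, minus strand): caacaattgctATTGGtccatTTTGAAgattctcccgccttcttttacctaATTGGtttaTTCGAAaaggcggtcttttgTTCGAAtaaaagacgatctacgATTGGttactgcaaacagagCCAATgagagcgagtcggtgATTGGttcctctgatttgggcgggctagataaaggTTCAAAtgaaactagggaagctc
Ube2c (chr2:164769729-164769928, plus strand): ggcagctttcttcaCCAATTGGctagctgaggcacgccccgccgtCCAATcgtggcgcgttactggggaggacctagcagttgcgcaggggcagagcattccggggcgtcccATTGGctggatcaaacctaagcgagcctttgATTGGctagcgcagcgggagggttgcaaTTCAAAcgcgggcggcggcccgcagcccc
Mcm7 (chr5:138171884-138172083, minus strand): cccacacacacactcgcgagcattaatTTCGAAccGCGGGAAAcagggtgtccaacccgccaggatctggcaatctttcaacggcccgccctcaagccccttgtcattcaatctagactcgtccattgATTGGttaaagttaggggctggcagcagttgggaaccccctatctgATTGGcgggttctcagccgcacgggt
Mcm6 (chr1:128359706-128359905, minus strand): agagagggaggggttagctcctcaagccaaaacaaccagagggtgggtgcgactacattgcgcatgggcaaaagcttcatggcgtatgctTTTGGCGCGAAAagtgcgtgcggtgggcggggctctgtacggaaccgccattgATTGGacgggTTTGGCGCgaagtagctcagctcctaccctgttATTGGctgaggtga
Uhrf1 (chr17:56304113-56304312, plus strand): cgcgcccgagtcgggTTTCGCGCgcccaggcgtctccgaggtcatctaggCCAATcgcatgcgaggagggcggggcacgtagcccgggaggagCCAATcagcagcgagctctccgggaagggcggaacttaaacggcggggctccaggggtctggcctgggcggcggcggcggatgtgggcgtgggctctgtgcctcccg
Hells (chr19:38930790-38930989, plus strand): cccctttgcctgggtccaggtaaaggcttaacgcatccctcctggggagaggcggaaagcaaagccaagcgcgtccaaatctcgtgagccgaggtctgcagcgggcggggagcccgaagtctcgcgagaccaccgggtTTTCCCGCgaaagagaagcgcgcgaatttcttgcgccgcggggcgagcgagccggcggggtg

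In the libraries the panel spanned from Ube2c, the most abundant at a mean of 36.9 FPKM, to Kif20a at 0.806 FPKM. Ube2c encodes the enzyme that starts ubiquitin chains for the anaphase-promoting complex. Values are given below in the order of the library numbers. Ube2c was at 53.8, 13.5 and 30.8 FPKM in WT and at 30.7, 37.5 and 55.3 FPKM in knockout. The groups overlapped, WT library 2 was the lowest of all, and the WT libraries spanned nearly the whole range seen. Most of the other members repeated this layout.

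**Figure D1:**
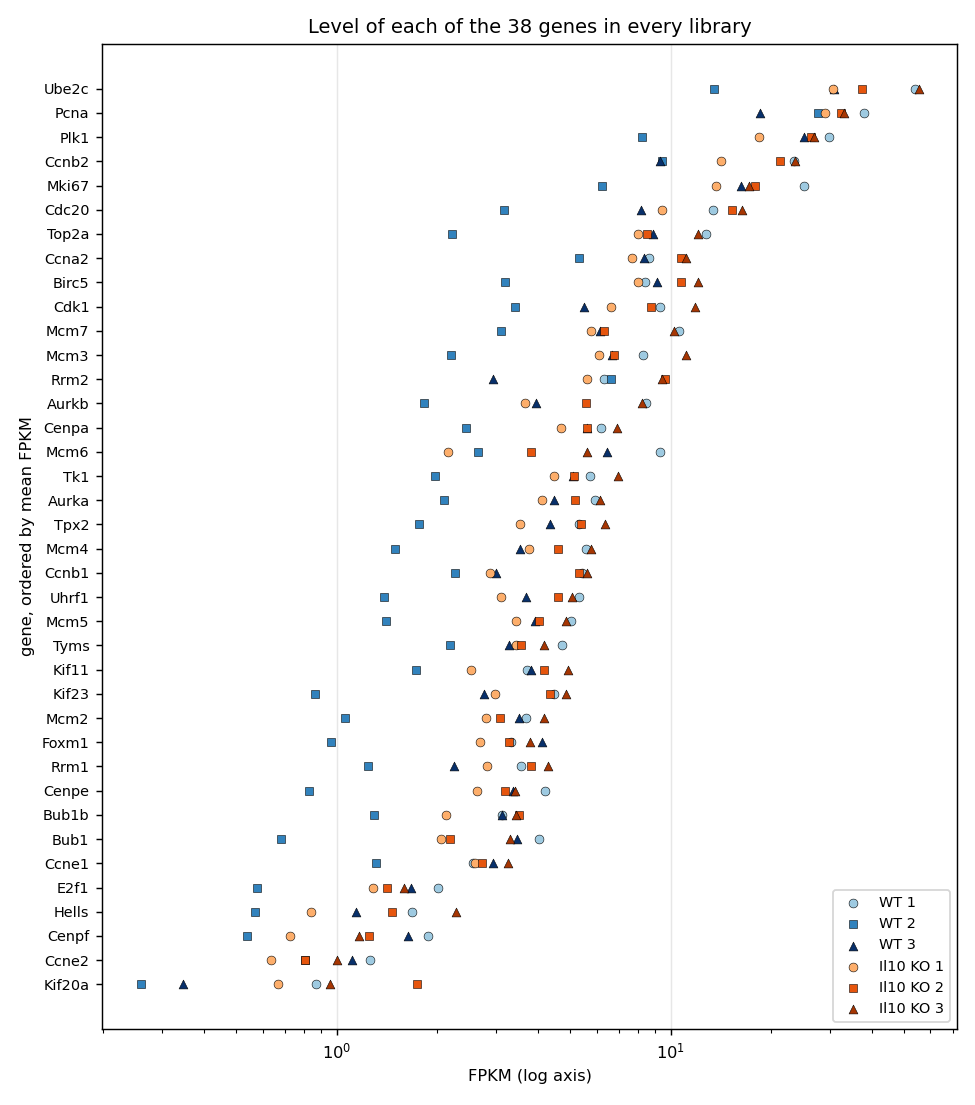
FPKM of each of the 38 genes (log axis) in the 3 WT libraries (blue) and the 3 Il10 knockout libraries (orange), genes ordered by mean level. WT library 2 (blue squares) lies at the left end for 33 of the 38 genes, and the other 5 libraries overlap.

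Among the mitotic kinases and cyclins, Plk1, a kinase of mitotic entry and spindle assembly, was at 29.9, 8.20 and 25.1 FPKM in WT and at 18.4, 26.3 and 26.9 FPKM in knockout. Cdk1, the kinase that drives mitosis, was at 9.31, 3.42 and 5.52 FPKM in WT and at 6.65, 8.76 and 11.8 FPKM in knockout. WT library 2 was lowest for both genes and the other 5 libraries were mixed. For the B cyclins that activate Cdk1, the WT libraries lay further apart than the group means. Ccnb1 was at 5.42, 2.26 and 2.99 FPKM in WT and at 2.87, 5.32 and 5.63 FPKM in knockout. Ccnb2 was at 23.4, 9.45 and 9.30 FPKM in WT and at 14.2, 21.3 and 23.6 FPKM in knockout, so WT libraries 2 and 3 were both below every knockout library while WT library 1 was not. Cdc20, the activator of the anaphase-promoting complex, had the highest log2 fold change of the 36 members tested. It was at 13.4, 3.16 and 8.16 FPKM in WT and at 9.42, 15.3 and 16.4 FPKM in knockout, and WT library 1 again lay inside the knockout range. The remaining members of this group were Ccna2 (cyclin A2, of S phase and early mitosis), Aurka and Aurkb (spindle pole and chromosomal passenger kinases) and Bub1 and Bub1b (spindle checkpoint). Their group means lay between 2.51 and 9.86 FPKM. Cdc20 overlaps Elovl1 by 53 bases and Ccna2 overlaps Exosc9 by 863 bases, each on the opposite strand. In all 14 of the 38 members overlap another gene of the table, and the strand setting of the counting is unknown.

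Of the centromere, spindle and chromosome genes, Mki67, the gene of the Ki-67 proliferation marker, was at 25.1, 6.24 and 16.3 FPKM in WT and at 13.7, 17.8 and 17.2 FPKM in knockout. Top2a, which untangles replicated DNA, was at 12.7, 2.22 and 8.88 FPKM in WT and at 8.01, 8.49 and 12.1 FPKM in knockout. Both of these common markers of dividing cells were highest in WT library 1 and lowest in WT library 2, so the WT group held both ends of the range. Birc5, the survivin subunit of the chromosomal passenger complex, was at 8.36, 3.18 and 9.12 FPKM in WT and at 7.99, 10.7 and 12.0 FPKM in knockout. The other members (Cenpa, the centromeric histone, the kinetochore proteins Cenpe and Cenpf, the motors Kif11, Kif20a and Kif23, and the spindle factor Tpx2) were all lowest in WT library 2. Kif20a was at 0.865, 0.259 and 0.347 FPKM in WT and at 0.668, 1.74 and 0.953 FPKM in knockout. It rested on 13 to 104 reads per library, overlaps Cdc23 on the opposite strand and fell below the filter on low values.

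The MCM genes encode the hexameric helicase that opens DNA at replication origins. Mcm3 was at 8.24, 2.20 and 6.68 FPKM in WT and at 6.10, 6.75 and 11.1 FPKM in knockout, and Mcm7 was at 10.6, 3.10 and 6.14 FPKM in WT and at 5.76, 6.34 and 10.2 FPKM in knockout. Mcm2, Mcm4 and Mcm5 had lower levels with the same layout, at group means of 2.75 to 4.71 FPKM. Mcm6 departed from them: it was at 9.30, 2.65 and 6.47 FPKM in WT and at 2.16, 3.82 and 5.63 FPKM in knockout. Its lowest library was Il10 knockout library 1, and both WT libraries 1 and 3 lay above every knockout library.

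In the group for the replication clamp, nucleotide supply and chromatin, 2 genes did not follow WT library 2. Pcna, the sliding clamp of the replication fork, was at 38.1, 27.6 and 18.5 FPKM in WT and at 29.0, 32.5 and 33.0 FPKM in knockout. Rrm2, the regulatory subunit of ribonucleotide reductase, was at 6.31, 6.64 and 2.93 FPKM in WT and at 5.63, 9.59 and 9.43 FPKM in knockout. Both were lowest in WT library 3, and WT library 2 lay near or inside the knockout range. Rrm1, the large subunit of the same enzyme, was at 3.57, 1.24 and 2.25 FPKM in WT and at 2.83, 3.81 and 4.28 FPKM in knockout, with WT library 2 the lowest. The ratio of Rrm2 to Rrm1 was therefore 5.36 in WT library 2 and 1.30 to 2.52 in the other 5 libraries. Tyms and Tk1 (thymidylate supply), Hells (a chromatin remodeller) and Uhrf1 (which guides maintenance DNA methylation) were lowest in WT library 2 and overlapped between groups.

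The G1/S regulators were at low levels. E2f1, the factor that activates replication genes, was at 2.004, 0.576 and 1.67 FPKM in WT and at 1.28, 1.41 and 1.59 FPKM in knockout. Foxm1, the factor of the mitotic genes, was at 3.32, 0.961 and 4.13 FPKM in WT and at 2.68, 3.27 and 3.78 FPKM in knockout. WT library 2 was lowest for both, and the knockout libraries lay between the WT extremes. The E-type cyclins, which activate Cdk2 at the start of S phase, were Ccne1 at 2.27 ± 0.852 FPKM in WT and 2.85 ± 0.349 FPKM in knockout (SD, n = 3) and Ccne2 at 1.06 ± 0.233 and 0.812 ± 0.183 FPKM. Ccne2 fell below the filter and overlaps Ints8 on the opposite strand.

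No member differed between the genotypes beyond the spread of the libraries. Of the 38 members 36 passed the filter of a mean of at least 1 FPKM, and 0 of them were called higher and 0 lower by limma with Benjamini-Hochberg adjustment over all 12668 genes tested at 0.05. Over all tested genes 0.182% were called higher and 0% lower. At an unadjusted p under 0.05, 0 members were called in either direction, while 6.14% of tested genes were higher and 4.03% lower. Voom on reads recovered from the FPKM values also called 0 members, and 0 at an unadjusted p under 0.05. The groups did not separate for any of the 38 members, while 8.84% of tested genes had all knockout libraries above all WT libraries and 7.89% had them all below. Adjusted p-values of the members lay between 0.621 and 0.983 in limma. Cdc20 had the highest log2 fold change, 0.81 (SE 0.48, limma adjusted p = 0.622), at 13.7 ± 3.75 FPKM in knockout and 8.25 ± 5.14 FPKM in WT (SD, n = 3). Mcm6 had the lowest, -0.49 (SE 0.45, limma adjusted p = 0.76), at 3.87 ± 1.74 FPKM in knockout and 6.14 ± 3.34 FPKM in WT. All these log2 fold changes compare log2(FPKM + 1), knockout less WT, and so are too small for genes of low level.

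That nearly all members had a positive sign rested on WT library 2, though many kept it without that library. With all libraries 34 of the 36 members had positive log2 fold changes (54.1% of all tested genes did), and the median was 0.32, beside 0.04 over all tested genes. Without WT library 2, 17 of the 36 were positive and the median was -0.02, beside 0.08 over all tested genes. By role, the medians with and without that library were 0.37 and -0.01 for mitotic kinases, cyclins and the ubiquitin ligase, and 0.29 and -0.05 for centromere and spindle genes. They were 0.29 and -0.10 for the MCM genes, and 0.33 and 0.04 for the clamp and nucleotide genes. For the 3 tested G1/S regulators they were 0.26 and -0.16. Without WT library 1, the median rose to 0.60, and 4 members (Ccnb2, Cdc20, Cdk1 and Rrm1) had an unadjusted p under 0.05, with limma adjusted p-values of 0.327 to 0.393. These 4 were higher in knockout. Without WT library 2, only Mcm6 had an unadjusted p under 0.05, and it was lower in knockout (log2 fold change -0.91, limma adjusted p = 0.199). The share of all tested genes under that p in these refits is not reported here. Members rise and fall together from library to library, so their number does not count as that many separate observations.

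**Figure D2:**
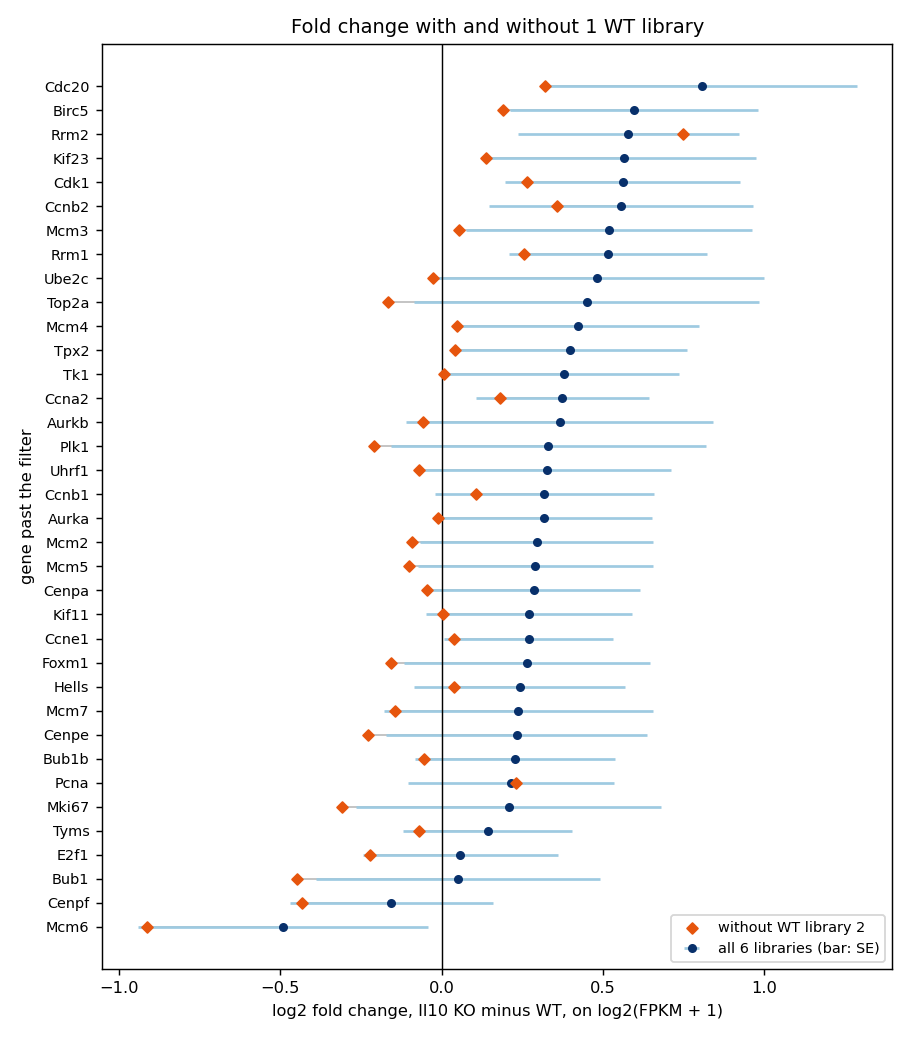
Log2 fold change of the 36 members past the filter, Il10 knockout less WT in log2(FPKM + 1), with all 6 libraries (circles, bars give the SE) and without WT library 2 (diamonds). Without that library 17 of 36 remain above 0, against 34 with it.

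A wide contrast lay within the WT group. WT library 2 was the lowest library for 33 of the 38 members, beside 24.4% of all tested genes, and lay below the whole knockout range for 35. WT library 1 exceeded WT library 2 for 37 of 38 members, by a median of 3.38-fold (0.949 to 5.94), while the median over tested genes was 0.927-fold. The widest gaps were those of Bub1 (5.94-fold), Top2a (5.74-fold) and Kif23 (5.17-fold), and Rrm2 was the 1 member without a gap. WT library 1 in turn was above the knockout range for 15 members, inside it for 22 and below it for 1. WT library 3 was above that range for 6, inside for 22 and below for 10. The knockout libraries differed in a regular way too: Il10 knockout library 1 was the lowest of the 3 for all 38 members, and library 3 exceeded it by a median of 1.57-fold (1.14 to 2.73), beside 0.970-fold over tested genes.

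Levels within a library were also set against each other, which removes the shared rise and fall; this comparison was chosen after the values were seen. For each member the log2 FPKM, without a pseudocount, was taken relative to the mean of the other 37 members in the same library. On this scale Rrm1, Kif23, Cdc20 and Kif20a had all knockout libraries above all WT libraries, which is 4 of 38 members. Among the other tested genes above 0 in every library, set against the member mean, 2.51% did so. Mcm6, Ccne2 and Cenpf had all knockout libraries below all WT libraries, which is 3 of 38, beside 6.92% of the other genes. Separated groups of 3 against 3 libraries always give an exact two-sided permutation p of 0.1, the smallest they allow. The p of 0.1 for each of these 7 genes thus only restates the separation, and it was not computed for the other members. The other genes need not share the members' rise and fall, so subtracting the member mean can add spread to them. The shares of 2.51% and 6.92% are therefore not a like background for the member counts. Kif20a and Ccne2 also fell below the filter that the other genes passed.

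Mcm6 stood furthest from its own complex. Its FPKM divided by the mean of Mcm2, Mcm3, Mcm4, Mcm5 and Mcm7 was 1.40, 1.43 and 1.36 in WT, against 0.493, 0.770 and 0.777 in knockout. The WT libraries, which differed more than 3-fold in the level of Mcm6 itself, thus had nearly the same ratio, 1.40 ± 0.0354, and the knockout mean was 0.680 ± 0.162 (SD, n = 3), so that WT was 2.05-fold higher. The other 5 MCM genes, each against the remaining 4, overlapped between groups, and their WT means were 0.857 to 1.21 times the knockout means. Mcm6 (ENSMUSG00000026355; GRCm38 chromosome 1, 128331590 to 128359664, minus strand, protein coding) overlaps no other gene of the table and rested on 127 to 700 reads per library. Of the 11 ratios computed, Ccne1 over Ccne2 and Cdc20 over Plk1 also separated the groups. Ccne1 over Ccne2 was 2.03, 1.63 and 2.65 in WT and 4.08, 3.40 and 3.25 in knockout. Cdc20 over Plk1 was 0.449, 0.386 and 0.326 in WT and 0.512, 0.583 and 0.609 in knockout. For these 3 ratios the exact two-sided permutation p was 0.1, the smallest possible, and 0.367 adjusted over the 11. Any ratio that separates 3 against 3 libraries gives that 0.1. The ratios were picked after the values were seen, and neither p covers that choice. Plk1 overlaps Gm44985 on the opposite strand.

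**Figure D3:**
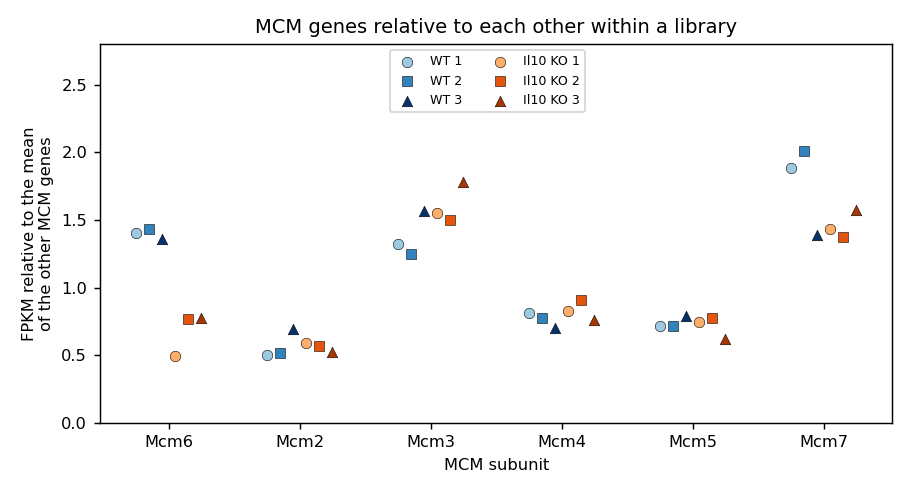
FPKM of each MCM gene divided by the mean FPKM of the other MCM genes in the same library (Mcm6 against the other 5, the rest against the other 4 without Mcm6), with 1 point per library. The ratio of Mcm6 is 1.36 to 1.43 in WT and 0.493 to 0.777 in Il10 knockout, and those of the other genes overlap.

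Further genes of the pathway were listed by role. Of 147 listed genes 118 passed the filter, and 0 were called in either direction by limma. Over all tested genes 0.182% were called higher and 0% lower. At an unadjusted limma p under 0.05, 4 of the 118 were higher and 1 lower, beside 6.14% and 4.03% of all tested genes. Voom called 2 genes in the whole table. Of 46 tested genes for other kinetochore, spindle, condensin and cytokinesis proteins, 43 had positive log2 fold changes (median 0.31), and 24 did without WT library 2 (median 0.01); 41 of the 46 were lowest in WT library 2. Of 33 origin licensing and replication fork genes, 28 were positive (median 0.18), and 18 without that library (median 0.02). Of 7 checkpoint and recombination genes 6 were positive (median 0.13), and 2 without it (median -0.16). Differences between these lists and those of the upstream regulators were not tested. The G1 cyclins, CDKs and pocket proteins had a median of -0.03 over 13 genes, of which 6 were lowest in WT library 2. The CDK inhibitors had a median of 0.02 over 6 genes, of which 0 were, and E2F and MYB-MuvB factors one of 0.13 over 13 genes, of which 4 were.

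Among these, Ccnd1, the D-type cyclin of G1, was at 3.82, 1.99 and 3.20 FPKM in WT and at 5.23, 10.1 and 6.00 FPKM in knockout. All knockout libraries were above all WT libraries, and the log2 fold change was 1.00 (SE 0.31, limma adjusted p = 0.372). Pttg1, securin, which holds separase until anaphase, was at 18.6, 20.1 and 20.7 FPKM in WT and at 12.9, 8.11 and 12.7 FPKM in knockout. Here WT library 2 stood with the other WT libraries, and all knockout libraries were lower, with a log2 fold change of -0.79 (SE 0.26, limma adjusted p = 0.414). Cdkn1a, the p21 inhibitor of cyclin-dependent kinases, was at 27.3, 107 and 25.1 FPKM in WT and at 84.1, 114 and 76.6 FPKM in knockout. WT library 2, the lowest for proliferation genes, thus had the p21 level of the knockout libraries. The limma log2 fold change was 1.09 (SE 0.58, adjusted p = 0.577). Wee1, which inhibits Cdk1, was at 2.01, 6.62 and 1.77 FPKM in WT and 1.58, 1.45 and 1.74 FPKM in knockout, highest in WT library 2 and lower in every knockout library than in any WT library. E2f2 (log2 fold change 0.77), Mybl2, which encodes B-MYB (0.55), and the histone gene H2afx (0.60) had all knockout libraries above all WT libraries, with limma adjusted p-values of 0.49, 0.524 and 0.571. Rbl2, a pocket protein, had all knockout libraries below all WT libraries. Over all tested genes such separations made up 8.84% (higher) and 7.89% (lower). Low values of the other lists included those of Rbl2 (-0.46), Cdkn2d (-0.48), E2f6 (-0.42), Rfc2 (-0.27) and Rad51ap1 (-0.01), and the highest of the replication list was Prim2 (0.92), none past the threshold.

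The libraries also differed in markers of cell types, some of which moved with the cell cycle genes. Of 10 markers of differentiated colonocytes 6 were highest in WT library 2, beside 29.9% of all tested genes. Car4, Ceacam20, Saa1 and Muc13 were highest in a knockout library. The list summed to 44688 FPKM in WT library 2, 2498 and 3012 FPKM in the other WT libraries and 3184 to 12590 FPKM in knockout. Most of the sum in WT library 2 came from Car1, a carbonic anhydrase of surface colonocytes. Car1 was at 117, 31511 and 456 FPKM in WT and at 5716, 544 and 481 FPKM in knockout. Markers of the crypt base and progenitors were lowest in WT library 2 for 8 of 12 genes, beside 24.4% of all tested genes. Lgr5, Ascl2, Znrf3 and Prom1 were lowest elsewhere. Ascl2, a stem cell factor, was at 8.44, 0.840 and 4.96 FPKM in WT and at 2.34, 0.823 and 1.02 FPKM in knockout, lowest in Il10 knockout library 2. The summed level of that list, 149 FPKM in WT library 2, 63.6 to 69.3 FPKM in the other WT libraries and 94.4 to 109 FPKM in knockout, was carried by Prom1, at 132 FPKM in WT library 2. Epithelial markers summed to 5766, 13862 and 2352 FPKM in WT and to 9162 to 13560 FPKM in knockout. Relative to the mean log2 level of the 14 epithelial markers, the mean of the 38 genes was at -4.23, -6.95 and -3.99 in WT and at -5.85, -5.76 and -5.12 in knockout, so WT libraries 1 and 3 were above and WT library 2 below every knockout library.

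**Figure D4:**
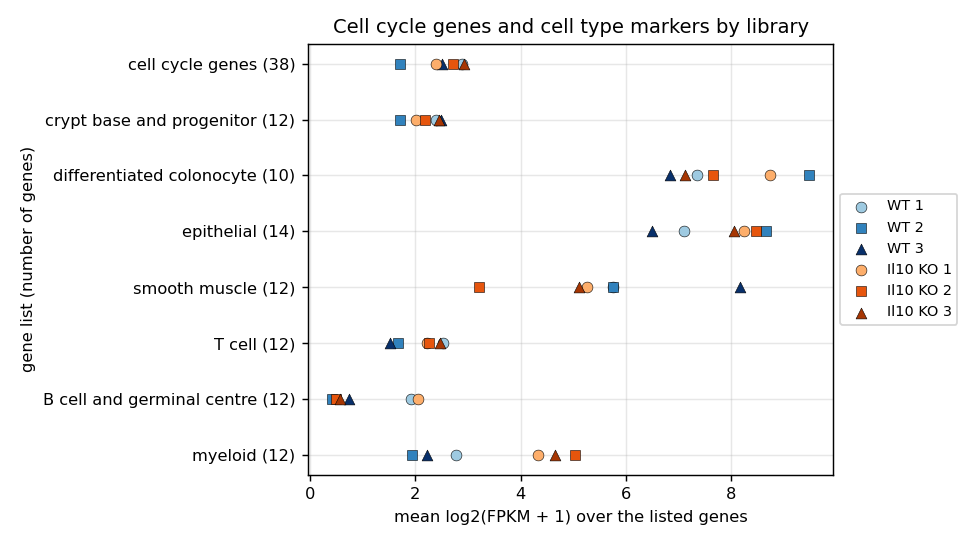
Mean log2(FPKM + 1) of the 38 cell cycle genes and of cell type marker lists, with 1 point per library (WT blue, Il10 knockout orange). WT library 2 is lowest for the cell cycle and crypt lists, at 1.71 for both, and highest for the differentiated colonocyte list, at 9.49.

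Of the immune lists, B cell and myeloid markers had their lowest sum in WT library 2, and T cell markers had theirs in WT library 3. For comparison, 24.4% of all tested genes were lowest in WT library 2. B cell and germinal centre markers summed to 59.7 FPKM in WT library 1 and 71.4 FPKM in Il10 knockout library 1 and to 5.06 to 9.33 FPKM in the other 4, and Pax5, Cr2, Fcer2a and Mef2b were each at 0 in at least 1 library; 5 of the 12 markers in the list were lowest in WT library 2. T cell markers summed to 72.9, 34.3 and 28.5 FPKM in WT and to 60.7 to 80.3 FPKM in knockout, and 4 of 12 were lowest in WT library 2. Myeloid markers summed to 115 to 374 FPKM in WT and to 980 to 1824 FPKM in knockout. By limma 2 of these 12 markers were called higher, beside 0.182% of all tested genes, and 7 were lowest in WT library 2. Much of the knockout sum came from S100a8, at 1153, 671 and 282 FPKM, and S100a9, at 382, 462 and 225 FPKM. S100a9 and Cxcr2 were at 0 in every WT library, and S100a8 was at 0 in WT library 2. Lyz2 overlapped between groups, at 250, 69.1 and 102 FPKM in WT and at 163, 395 and 280 FPKM in knockout. Smooth muscle markers summed to 11099 FPKM in WT library 3, 1671 and 1773 FPKM in the other WT libraries and 218 to 1306 FPKM in knockout, and neuron and glia markers to 48.2 to 327 and 13.2 to 51.5 FPKM. The part of cell composition in the levels of the cell cycle genes was not tested.

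Across the whole table the libraries held 13107941 to 15797928 recovered reads, of which 6425 in WT library 2 and 11888 to 23962 in the others came from the 38 genes. For the same gene 1 read gave a higher FPKM in WT library 2 than in WT library 1, although WT library 2 held more recovered reads. The FPKM were thus not scaled by these totals, and gaps between libraries per recovered read differ from those in FPKM. Mitochondrial genes took 43.4% of reads in WT library 3 and 8.61% to 22.0% in the rest. Il10 RNA was higher in the libraries labelled Il10 knockout (10.6 to 14.5 FPKM) than in WT (0.173 to 0.757 FPKM). The value covers the whole gene, and the labels do not say which part is deleted, so this is no check of the genotype.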

How the data were processed

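Colon RNA from 3 WT and 3 Il10 knockout libraries, grouped and numbered by sample title, was measured by RNA sequencing. The values deposited are FPKM, in 1 table of 54532 genes; per the submitters' processing notes Bowtie 0.12.2 and the builds hg38 and mm8 were named, without roles. For the counting tool, strand setting and annotation nothing is given in the sources used here. Coordinates of 37 of the 38 members equalled those of GENCODE M21 (GRCm38). The gene length, in another deposited column, turned FPKM into whole multiples of 1 step per library (tolerance 0.01, 100% of values above 0), which gave recovered reads; read numbers cover counting error only. No 2 libraries were repeats of each other (chi-square per gene of 43.6 or more).

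Values were taken as log2(FPKM + 1) and tested with limma 3.58.1 (eBayes with the mean trend, R 4.3.3) on the 12668 genes with a mean of at least 1 FPKM, with no replicate block, Benjamini-Hochberg adjustment over all of them and a threshold of 0.05. The script was tested on simulated data. Ratios were compared with an exact permutation test (scipy 1.17.1); tables used Python 3.11.15. Alternatives were a pseudocount of 0.1, no filter or a mean of 0.1 FPKM, quantile normalization, TPM, a weight per library, a replicate block, voom on recovered reads, and leaving out each library. The members and gene lists were chosen with earlier results of these data known. All members are named; of each related list the 2 highest and the 2 lowest by fold change were candidates for naming, and markers, ratios and the Mcm6 promoter were picked after their values were seen. By rule up to 2 promoters per role with a CHR or E2F match were eligible for printing, by level; those of Plk1 and Mcm3, whose matches lie after the start, were left out. Sequences are RefSeq's. Single values of some markers are not reported here.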

Additional observations from a re-analysis of the deposited data

How the results depend on the processing

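Members called numbered 0 in each direction under all 14 alternatives, with the smallest adjusted p of a member at 0.125 with a weight per library and 0.199 without WT library 2, both for Mcm6. The median log2 fold change of the members was 0.32; it was -0.026 with a weight per library, where WT libraries 1 to 3 had weights of 2.76, 0.198 and 0.465, and between -0.020 (without WT library 2) and 0.60 (without WT library 1) when libraries were left out. It was 0.42 with a pseudocount of 0.1, 0.27 with quantile normalization, 0.45 with TPM, which moved the median of all tested genes to 0.15, and 0.43 with voom. Over all genes 23 were called higher and 0 lower; the counts were 4 and 0 with no filter, 44 and 2 with TPM, 237 and 94 with a weight per library, 2 and 0 with voom, and 27 and 1 with quantile normalization, and between 4 and 27 higher and 0 and 3 lower when 1 library was left out. Of the refits of single members, 37 turned the sign and 467 kept it, and none was past the threshold; the 37 came from the weights and from leaving out libraries, mostly WT library 2, and the cause was not tested. With a weight per library the members that turned were Mki67 -0.37, Top2a -0.23, Plk1 -0.13, Aurka -0.042, Aurkb -0.25, Bub1 -0.43, Cenpa -0.0096, Cenpe -0.21, Mcm2 -0.041, Mcm4 -0.048, Mcm5 -0.12, Mcm7 -0.32, Pcna -0.085, Tyms -0.17, Uhrf1 -0.088, Ube2c -0.19, E2f1 -0.22. Leaving out 1 library gave these ranges for the members that turned: Mki67 -0.31 to 0.62, Top2a -0.17 to 0.88, Plk1 -0.21 to 0.66, Aurka -0.012 to 0.57, Aurkb -0.058 to 0.81, Bub1 -0.45 to 0.34, Bub1b -0.053 to 0.40, Cenpa -0.045 to 0.48, Cenpe -0.23 to 0.53, Cenpf -0.43 to 0.015, Mcm2 -0.092 to 0.50, Mcm5 -0.10 to 0.56, Mcm7 -0.15 to 0.61, Pcna -0.043 to 0.46, Tyms -0.069 to 0.35, Uhrf1 -0.070 to 0.63, Ube2c -0.027 to 0.93, Foxm1 -0.16 to 0.54, E2f1 -0.22 to 0.24.

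With the replicate number as a replicate block the member median stayed at 0.32, 0 members were called and 7 genes were called in the whole table. Deviations from the group means of same-numbered libraries correlated across genes at -0.149, 0.180 and 0.396 for numbers 1 to 3. Libraries 2 and 3 of each group correlated best with their own number, and libraries 1 did not. With 3 libraries per group the deviations are tied to each other, so this check cannot decide whether the numbers pair the libraries. Read depth limits the scarcest members: Kif20a had as few as 13 reads and E2f1 24 reads in WT library 2.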
